A study of Mus musculus with 7 samples.

Results

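The vascular genes of the mouse prefrontal cortex were described in 7 RNA sequencing libraries. The set is a list of 36 gene symbols for endothelial cells, pericytes and smooth muscle cells, matched to the Ensembl gene identifiers of the deposited table by symbol, with gene models from GENCODE M21 (mouse build GRCm38, also called mm10). All 36 were found among the 43626 identifiers and all 36 passed the filter on low values. The tissue was frozen prefrontal cortex from C57BL/6J males, all 8 weeks old. The groups were 3 wild-type (WT) libraries and 4 of the heterozygous genotype written hDISC1AA/+ in the labels. Its title concerns the phosphorylation of DISC1, a scaffold protein of neurons, and the polarity of cortical neurons. The labels name no treatment, and they do not say whether each library came from a separate mouse, so p-values measure the spread between these libraries, which may in part be technical.

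Brain capillaries are lined by endothelial cells whose tight junctions and transporters form the blood-brain barrier. Pericytes sit on the outside of the capillary wall in the basement membrane, and contractile smooth muscle cells ring the arteries and arterioles. Both are called mural cells, and endothelial cells recruit them through PDGF-B acting on the receptor PDGFRB. In bulk cortex the transcripts of these cells are a small part of the RNA, and a lower level can come from fewer cells of a type or from less RNA per cell, which cannot be told apart here.

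The values are normalized counts, which are reads per gene divided by 1 size factor per library by the authors. The libraries held 33512557 to 36005116 reads in genes, except WT replicate 1, which held 63845254 and whose title is written in another form. The number of 1 hDISC1AA/+ column matches none of the titles, so that column is named here the unnumbered library. In hDISC1AA/+ replicate 1 the mitochondrial genome gave 1.94% of the reads, against 5.14% to 6.94% in the other 6. All 15 markers of cortical neurons that were listed passed the filter on low values. Disc1 had 46.9, 72.0 and 109 normalized counts in WT and 60.3, 81.0, 80.2 and 85.4 in hDISC1AA/+ (log2 fold change 0.08, 95% CI -0.59 to 0.75), a gene-level count that does not check the genotype. In the lists of values here and below, the WT values are in the order of replicates 1 to 3 and the hDISC1AA/+ values in the order replicate 1, unnumbered library, replicate 3, replicate 4.

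WT replicate 1 stood apart from the other 6 libraries in the vascular genes, and the comparison of genotypes turned on it. With all 7 libraries, 34 of the 36 genes had a higher mean of log2(normalized count + 1) in hDISC1AA/+ (median log2 fold change 0.39). Of the 17670 genes tested, 47.8% did (median -0.01). On the reads of the same 7 libraries 33 of the 36 were higher both with edgeR (median 0.20) and with DESeq2 (median 0.19). Without WT replicate 1, 13 of the 36 were higher (median -0.14), where 48.4% of all genes were (median -0.01). With array weights, which count the more variable libraries for less, 10 of the 36 were higher (median -0.15); the weights were 0.244 for WT replicate 1, 0.279 for hDISC1AA/+ replicate 1, 5.23 for WT replicate 3 and 0.942 to 1.74 for the rest. No member passed the threshold of an adjusted p of 0.05 in either fit (limma, Benjamini-Hochberg over all genes tested). The limma adjusted p of the members was 0.974 to 0.998 with all libraries, and 0 of all genes tested passed in either fit. At an unadjusted p under 0.05 there were 0 members with all 7 libraries (2.44% of all genes) and 1 without WT replicate 1 (1.57% of all genes). Members higher in hDISC1AA/+ at that level numbered 0 in both fits (1.14% and 1.01% of all genes). On recovered reads 0 genes passed with edgeR (472 at an unadjusted p under 0.05, 0 of them members) or with DESeq2 (510 and 1). In no member were all WT libraries on one side of all hDISC1AA/+ libraries, as they were in 5.04% of all genes.

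**Figure D1:**
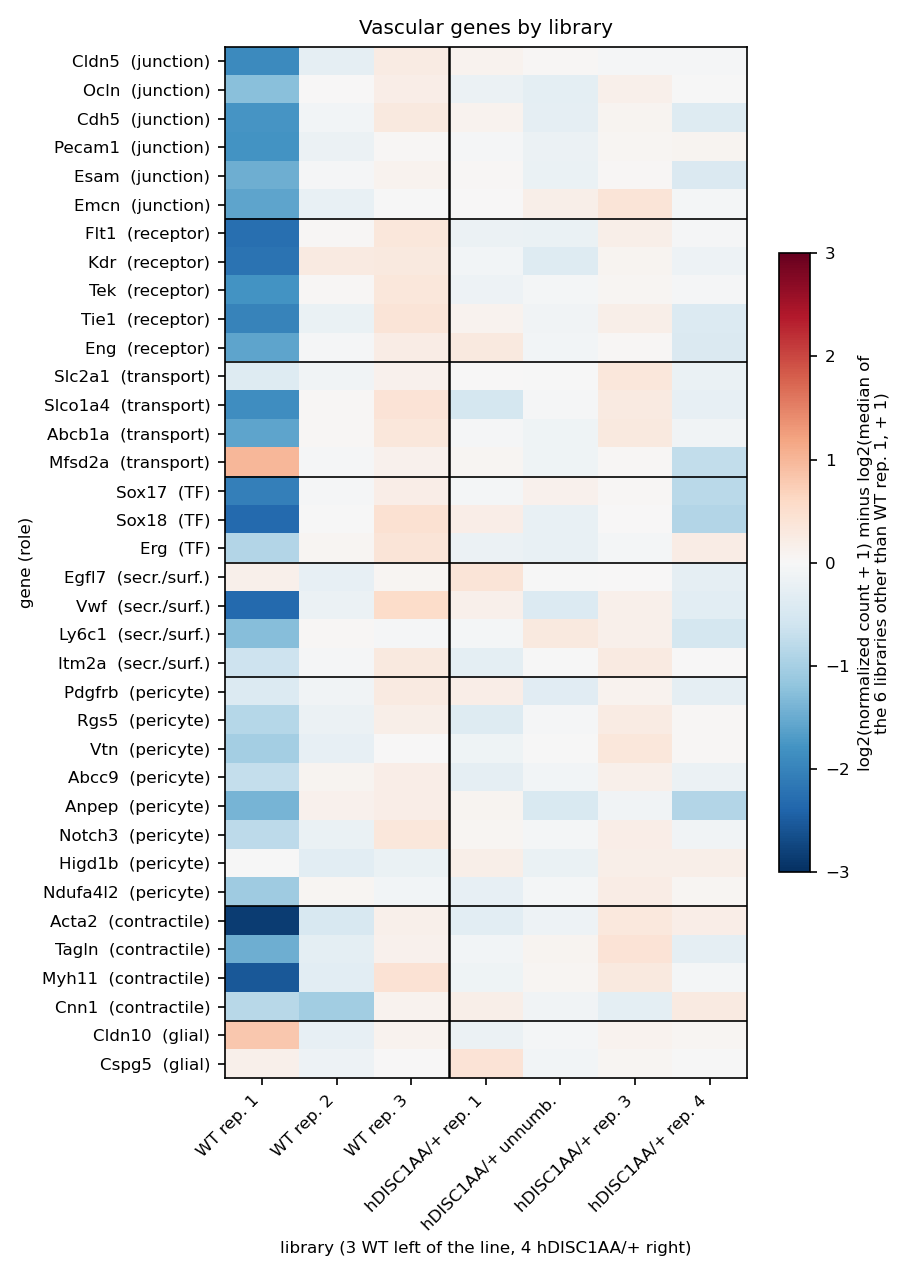
Each row is 1 of the 36 genes, ordered by role, and each column a library. Colour gives log2(normalized count + 1) minus that of the median of the 6 libraries other than WT replicate 1. The column of WT replicate 1 is blue for most endothelial and contractile genes, paler for the pericyte genes, and red for Mfsd2a and Cldn10.

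WT replicate 1 was the lowest of the 7 libraries in 30 of the 36 genes, against 24.8% of all genes tested. Its level was under 50% of the median of the other 6 libraries in 23 members, against 7.95% of all genes (on log2(normalized count + 1)). The other 6 libraries lay close together: the coefficient of variation over them was 7.83% (Pecam1) to 29.2% (Cnn1), with a median of 16.4%. WT replicate 3 was the highest of the 7 in 20 members and hDISC1AA/+ replicate 3 in 8, so the top of the range held libraries of both genotypes. Markers of other cells stood apart in WT replicate 1 too. It was the highest library in 12 of 13 oligodendrocyte genes and in 11 of 15 astrocyte genes, against 4975 of 17670 genes tested. The summed normalized count of the 13 oligodendrocyte genes ran from 45483 to 147421 in WT (highest in replicate 1) and from 43259 to 50346 in hDISC1AA/+, and none of the 13 was at 0. The part of tissue composition, of depth and of the other title form in the vascular values of WT replicate 1 was not tested.

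Junction and adhesion genes hold endothelial cells to each other. All 6 had a higher mean in hDISC1AA/+ with all libraries, and 3 of 6 did without WT replicate 1. Cldn5, the main claudin of blood-brain barrier tight junctions (ENSMUSG00000041378, chromosome 16, 18776847 to 18778262, plus strand), gave 316, 985 and 1411 normalized counts in WT and 1282, 1215, 1157 and 1150.1 in hDISC1AA/+. WT replicate 1 was low, and the 4 hDISC1AA/+ values lay between those of the other 2 WT libraries. The group means were 904 ± 552 (SD, n = 3) in WT and 1201 ± 61.3 (SD, n = 4) in hDISC1AA/+, with a log2 fold change of 0.66 (95% CI -0.36 to 1.67; exact permutation p = 0.20, two-sided). Leaving out WT replicate 1 gave a log2 fold change of 0.02 (95% CI -0.31 to 0.36).

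Pecam1, an adhesion molecule at endothelial cell contacts, had 198, 614 and 703 in WT and 678, 615, 724 and 736 in hDISC1AA/+. The 6 libraries other than WT replicate 1 were within a narrow range, and the groups overlapped. Its log2 fold change was 0.64 (95% CI -0.27 to 1.54) with all libraries and 0.06 (-0.22 to 0.34) without WT replicate 1. Emcn, an endothelial sialomucin, had 53.9, 139.7 and 162 in WT and 166, 186, 214 and 156 in hDISC1AA/+. It was the endothelial gene with the smallest unadjusted p (log2 fold change 0.74, 95% CI -0.06 to 1.54, exact permutation p = 0.0571), and it lay at 0.25 (-0.17 to 0.67) without WT replicate 1. Ocln, which encodes the tight junction protein occludin (log2 fold change 0.28 with all libraries, -0.18 without WT replicate 1), Cdh5, the endothelial cadherin (0.40 and -0.23), and Esam, an adhesion molecule of tight junctions (0.33 and -0.17), had opposite signs in the 2 fits.

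The 5 receptor genes lay at 20.8% to 33.3% of the median of the other 6 libraries in WT replicate 1. They encode the VEGF receptors Flt1 and Kdr, the angiopoietin receptor Tek with its partner Tie1, and the TGF-beta co-receptor Eng. The letters before the start sites of these genes are shown because the receptors lay low together in that library. RefSeq promoter windows (GRCm38.p6) were matched for 24 of the 36 genes, and the 250 bases before each start site were searched on both strands for 4 motifs. Sox18 and Vwf, at 19.5% and 19.9% in WT replicate 1, had no window. The motif GGAAGT, a core of the sites bound by ETS factors such as ERG, occurred in 6 of 16 endothelial genes, 4 of the 5 receptors among them. Of all 27025 genes with a window, 22.2% had it. Egfl7 and Ly6c1 were the other endothelial genes with the motif. In WT replicate 1 they lay at 110.6% and 41.4% of the median of the other 6 libraries. The receptor Tek, at 28.5%, lacked the motif. A gene could have more than 1 window: 7 of 22 endothelial windows held the motif (31.8%), against 19.7% of all 32851. The stretches below run 5′ to 3′ on the gene's strand, with GGAAGT or its reverse complement ACTTCC in capitals.
Flt1 (chr5:147726033-147726088, minus strand): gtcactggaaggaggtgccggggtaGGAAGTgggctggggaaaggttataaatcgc
Kdr (chr5:75978642-75978697, minus strand): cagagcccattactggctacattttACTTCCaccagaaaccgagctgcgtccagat
Tie1 (chr4:118489901-118489956, minus strand): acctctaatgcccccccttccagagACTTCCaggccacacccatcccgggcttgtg
Eng (chr2:32646517-32646572, plus strand): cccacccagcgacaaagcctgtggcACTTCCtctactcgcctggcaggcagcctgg
In these windows the motif began 52 bases before the start site in Flt1, 53 in Eng, 82 in Tie1 and 217 in Kdr. A match is only a match of letters, and a link to the levels in WT replicate 1 was not tested. ACAAT, a core of SOX factor sites that shares no stretch with GGAAGT, was found in 4 of the 16 endothelial genes and in 30.9% of all.

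Flt1, the receptor with the highest normalized count, had 586, 2883 and 3576 in WT and 2497, 2472, 3196 and 2754 in hDISC1AA/+. The library WT replicate 1 had 20.8% of the median of the other 6, and WT replicate 3 was the highest of all. With all libraries the log2 fold change was 0.58 (95% CI -0.76 to 1.91), and it was -0.24 (-0.56 to 0.08) without WT replicate 1. Tie1, the receptor with the smallest unadjusted p, had 100.1, 351 and 529.6 in WT and 433, 378, 455 and 302 in hDISC1AA/+ (log2 fold change 0.54, exact permutation p = 0.60). All 5 receptors were higher in hDISC1AA/+ with all libraries and all 5 were lower without WT replicate 1: Tek went from 0.43 to -0.24, Tie1 to -0.16 and Eng from 0.42 to -0.14. Eng overlaps the coding gene Fpgs on the opposite strand. The strand setting was not given, so part of its reads may belong to Fpgs.

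Kdr was picked out after its values were seen. It had 132, 749.7 and 757 in WT and 582, 470.2, 657 and 554 in hDISC1AA/+. Without WT replicate 1 both WT libraries lay above all 4 hDISC1AA/+ libraries, with a log2 fold change of -0.42 (95% CI -0.75 to -0.09; limma unadjusted p = 0.0185, adjusted p = 0.999). With all libraries it was 0.41 (-0.91 to 1.74), and 0.064 with edgeR on recovered reads. Among the members, 2 had groups that did not overlap without WT replicate 1 (Kdr and Anpep), where 12% of all genes did.

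**Figure D2:**
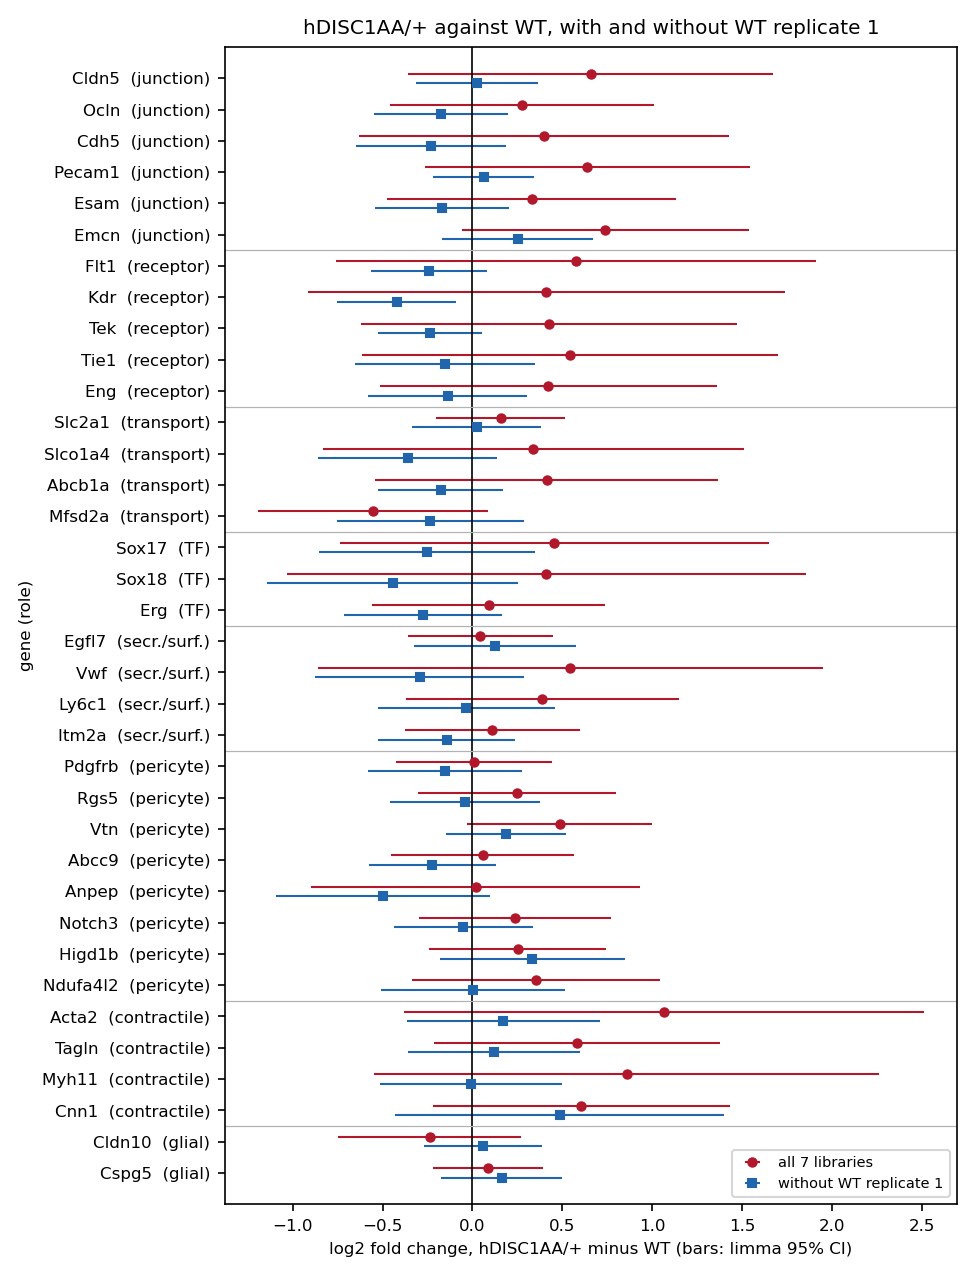
Points are log2 fold changes of hDISC1AA/+ minus WT and bars are limma's 95% confidence intervals, for all 7 libraries (red circles) and without WT replicate 1 (blue squares). The red points lie right of 0 for 34 of 36 genes and the blue ones for 13, with narrower bars for 32 genes and wider ones for 4.

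Transport genes differed among themselves. Slc2a1, the glucose transporter of the barrier, had 2085, 2536 and 2979 in WT and 2744, 2704, 3472 and 2363 in hDISC1AA/+. WT replicate 1 was the lowest, at 76.5% of the median of the other 6, and the log2 fold changes were 0.16 (95% CI -0.20 to 0.52) and, without that library, 0.02 (-0.33 to 0.38). The organic anion transporter gene Slco1a4 lay at 27.2% in WT replicate 1 and the drug efflux pump gene Abcb1a at 33.3%, with log2 fold changes of 0.34 and 0.41 with all libraries and -0.36 and -0.18 without it. Both have close paralogs between which the counting could have divided reads. Mfsd2a, the lipid transporter that keeps transcytosis low at the barrier, went the other way. It had 1435, 697 and 780.3 normalized counts in WT and 744, 655, 739 and 430.0 in hDISC1AA/+. WT replicate 1 was the highest library, at 199.9% of the median of the other 6, and hDISC1AA/+ replicate 4 the lowest. Mfsd2a was the 1 endothelial gene with a lower mean in hDISC1AA/+ with all libraries (log2 fold change -0.55, 95% CI -1.19 to 0.08, exact permutation p = 0.171), and the value without WT replicate 1 was -0.23 (-0.75 to 0.29).

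The transcription factor genes Sox17 and Sox18, which act in arterial and lymphatic endothelium, and Erg, which keeps endothelial identity, were all lowest in WT replicate 1. Sox18 had 57.1, 290.3 and 404 in WT and 338, 252, 295 and 159 in hDISC1AA/+. Sox17 had 63.5, 259.7 and 303 in WT and 256, 289.6, 271 and 152 in hDISC1AA/+. For both, hDISC1AA/+ replicate 4 was the lowest of the other 6 libraries. The log2 fold changes were 0.41 for Sox18, 0.45 for Sox17 and 0.09 for Erg with all libraries, and -0.44, -0.25 and -0.27 without WT replicate 1. The deficit in WT replicate 1 was smaller for Erg (54.3% of the median of the other 6) than for Sox18 (19.5%) and Sox17 (24.0%).

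Among the secreted and surface proteins, Itm2a, a membrane protein enriched in brain endothelium, had 1105, 1662 and 2089 in WT and 1380.3, 1672, 2053 and 1715 in hDISC1AA/+ (log2 fold change 0.11, 95% CI -0.38 to 0.60). Ly6c1, a surface antigen of capillary endothelium with a near-identical paralog, had 436, 1077 and 1027 in WT and 1016, 1281, 1173 and 729 in hDISC1AA/+ (log2 fold change 0.39, 95% CI -0.37 to 1.15). In both genes WT replicate 1 was lowest and the other WT libraries lay within or near the hDISC1AA/+ range. Vwf, the von Willebrand factor of endothelial storage granules, lay at 19.9% in WT replicate 1 (log2 fold change 0.54 with all libraries and -0.29 without it). Egfl7, a secreted factor of endothelial cells, did not share the deficit: it had 406, 308 and 383 in WT and 481, 363, 372 and 302 in hDISC1AA/+ (log2 fold changes 0.04 and 0.13). Egfl7 overlaps the coding genes Agpat2, on the opposite strand, and Gm20532, so part of its reads may belong to them.

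Pericyte genes lay lower in WT replicate 1 by less than most endothelial genes did. Rgs5, a regulator of G protein signalling and a defining pericyte marker, had 1899.8, 3071 and 3916 in WT and 2645, 3372, 4107 and 3517 in hDISC1AA/+. The hDISC1AA/+ range lay across the values of the other WT libraries (log2 fold change 0.25, 95% CI -0.30 to 0.80; -0.04 without WT replicate 1). Pdgfrb, the receptor that pericytes need for recruitment, had 659, 811 and 1056 in WT and 1003, 691, 946 and 730.4 in hDISC1AA/+, with nearly equal means of 842 ± 201 (SD, n = 3) in WT and 843 ± 155 (SD, n = 4) in hDISC1AA/+ (log2 fold change 0.0099, 95% CI -0.42 to 0.44). Vtn, which encodes the matrix protein vitronectin made by pericytes, had 1097, 1858 and 2225 in WT and 2036, 2215, 2805 and 2277 in hDISC1AA/+. It had the smallest unadjusted p of the 36 members (log2 fold change 0.48, SE 0.23, exact permutation p = 0.0857), and 0.19 (-0.15 to 0.52) without WT replicate 1.

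The other 5 pericyte genes did not move as 1 group. Abcc9, a subunit of ATP-sensitive potassium channels, had log2 fold changes of 0.06 and, without WT replicate 1, -0.22; Notch3, a receptor of mural cells, 0.24 and -0.05; and Ndufa4l2, a mitochondrial protein gene that overlaps Shmt2 on the opposite strand, 0.35 and 0.0041. Higd1b, a small membrane protein gene of pericytes, had 57.1, 45.8 and 50.1 in WT and 64.5, 49.8, 65.0 and 64.8 in hDISC1AA/+, and WT replicate 1 was near the middle of the range (log2 fold change 0.25, 95% CI -0.24 to 0.74). The gene Anpep, an aminopeptidase of the pericyte surface, had 131, 376 and 392 in WT and 366, 250.2, 321 and 186 in hDISC1AA/+. Its log2 fold change was 0.02 with all libraries and -0.50 (95% CI -1.09 to 0.10) without WT replicate 1, where both WT values were above all 4 of hDISC1AA/+.

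Contractile smooth muscle genes were low in WT replicate 1, at 13.7% to 54.2% of the median of the other 6. Acta2, smooth muscle actin, had 53.3, 279 and 428 in WT and 312, 347, 482 and 442 in hDISC1AA/+. The first value was 13.7% of the median of the other 6, the lowest such share among the members. WT replicate 2 lay below all 4 hDISC1AA/+ libraries and WT replicate 3 among them. Acta2 had the largest log2 fold change of the 36 with all libraries (1.06, 95% CI -0.38 to 2.51, exact permutation p = 0.143) and 0.17 (-0.37 to 0.71) without WT replicate 1. Myh11, smooth muscle myosin heavy chain, had 67.4, 319.7 and 541 in WT and 367, 419, 494 and 382 in hDISC1AA/+, with log2 fold changes of 0.86 and -0.01. Tagln, the actin-binding protein SM22, had 121, 274 and 366 in WT and 317, 355, 445 and 281 in hDISC1AA/+ (0.58 and 0.12) and overlaps the coding gene Pcsk7 on the opposite strand. Cnn1, calponin, was near the floor of measurement, with 11.6, 9.82 and 22.9 in WT and 24.3, 19.7, 17.3 and 25.7 in hDISC1AA/+ (0.61 and 0.49). In all 4 genes WT replicate 2 was the lowest of the 6 libraries other than WT replicate 1.

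The stretch before the Acta2 start site is shown because the gene had the deepest deficit. It holds GGAATG, the core of the sites bound by TEAD factors in smooth muscle genes, in capitals, 146 bases before the start.
Acta2 (chr19:34255489-34255544, minus strand): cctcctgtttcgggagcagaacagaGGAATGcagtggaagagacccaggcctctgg
GGAATG, searched on both strands and sharing GGAA with GGAAGT, occurred in 3 of the 7 mural genes with a window, in 2 of 16 endothelial genes and in 14.4% of all genes. The mural genes with GGAATG were Acta2, Vtn and Abcc9. Vtn and Abcc9 lay at 49.4% and 61.0% of the median of the other libraries in WT replicate 1. Of the contractile genes, Cnn1 had a window without GGAATG, and Tagln and Myh11 had no window and were not searched. The strict CArG box of serum response factor was in none of the 24 members with a window and in 1.62% of all genes. That says only that these letters are not in these windows. No link between a motif and the levels was tested.

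**Figure D3:**
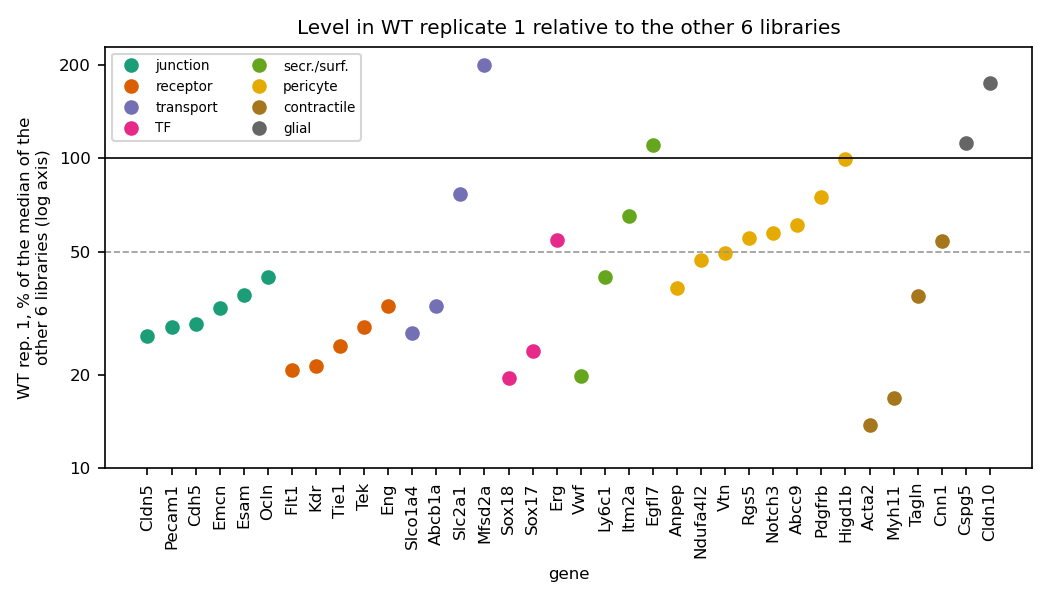
Each point is 1 gene, with its normalized count in WT replicate 1 as a percent of the median of the other 6 libraries on a log axis, coloured by role. The solid line marks equal levels and the dashed line 50%. Endothelial receptors lie at 20.8% to 33.3%, pericyte genes at 38.1% to 99.6%.

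The classes were compared by the mean over genes of log2(normalized count + 1) minus each gene's mean over the 7 libraries. The 22 endothelial genes had mean levels of -1.23, 0.16 and 0.46 in WT and 0.20, 0.11, 0.34 and -0.05 in hDISC1AA/+. The 12 mural genes had -0.97, -0.05 and 0.34 and 0.12, 0.08, 0.37 and 0.11. Both classes were lowest in WT replicate 1, and WT replicate 3 and hDISC1AA/+ replicate 3 were the highest or next to it in both. The difference between genotypes was 0.36 for endothelial and 0.40 for mural genes with all libraries, and -0.16 and 0.03 without WT replicate 1. Endothelial minus mural was -0.26, 0.21 and 0.12 in WT and 0.08, 0.03, -0.03 and -0.15 in hDISC1AA/+. The means were 0.02 ± 0.25 (SD, n = 3) in WT and -0.02 ± 0.10 (SD, n = 4) in hDISC1AA/+. With all libraries the difference of -0.04 was smaller than the spread between libraries. Without WT replicate 1 it was -0.19, and the other WT libraries lay above all 4 hDISC1AA/+ libraries. Without that library the groups did not overlap in 12% of all genes. The difference between the classes was not tested.

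The mural class was not uniform. In WT replicate 1 the 8 pericyte genes lay at -0.64 and the 4 contractile genes at -1.62, with the endothelial genes between them. The median level in WT replicate 1 was 31.0% of the other 6 for endothelial genes, 56.4% for pericyte genes and 26.4% for contractile genes. Endothelial minus contractile was 0.38, 0.39 and -0.05 in WT and -0.02, -0.17, -0.15 and -0.39 in hDISC1AA/+, so that WT replicate 3 lay within the hDISC1AA/+ range and the other WT libraries above it. The groups' difference was -0.42 with all libraries and -0.35 without WT replicate 1. Of the 4 contractile genes, Cnn1, near the floor of measurement, had the largest log2 fold change without that library (0.49). Those of the others were -0.01 to 0.17. Endothelial minus pericyte turned its sign: the groups' difference was 0.15 with all libraries, 0.0096 with edgeR and -0.10 without WT replicate 1. These differences of scores over chosen genes were not tested.

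**Figure D4:**
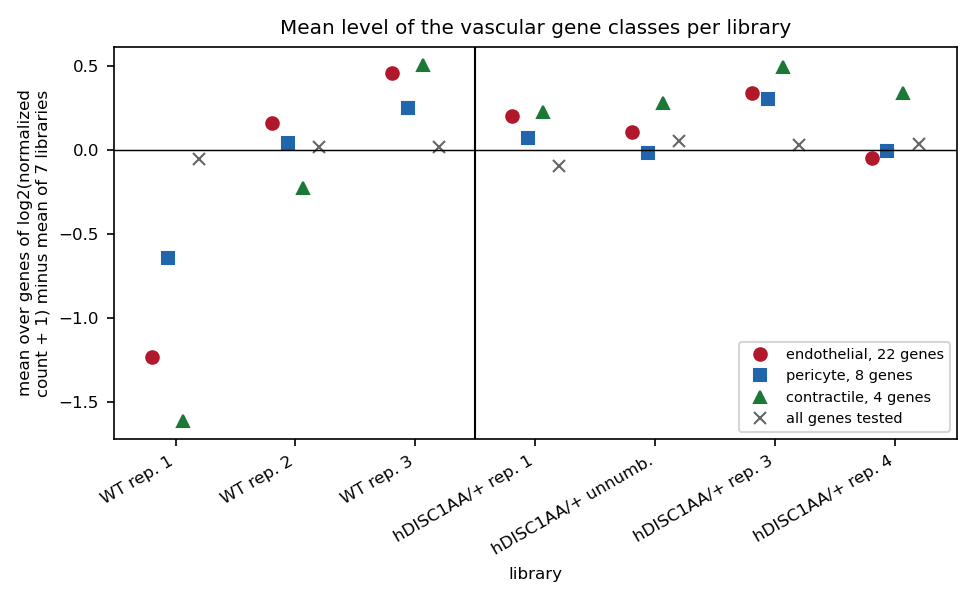
Points give, for each library, the mean over the genes of a class of log2(normalized count + 1) minus the gene's mean over the 7 libraries, for 22 endothelial, 8 pericyte and 4 contractile genes and all genes tested. In WT replicate 1 the endothelial points lie at -1.23, the pericyte points at -0.64 and the contractile points at -1.62, while all genes tested lie at -0.05.

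The listed genes Cldn10 and Cspg5 went against the label. Cldn10 is a claudin known in cortex from astrocytes, and Cspg5 encodes neuroglycan C, a proteoglycan of neurons and glia. Cldn10 had 1151, 550.0 and 705 in WT and 579, 625, 709 and 687 in hDISC1AA/+, with WT replicate 1 the highest of the 7 (log2 fold change -0.24, 95% CI -0.75 to 0.27; 0.06 without WT replicate 1). Cspg5 had 12383, 9998 and 11226 in WT and 14817, 10487, 11599.7 and 10975 in hDISC1AA/+, with hDISC1AA/+ replicate 1 the highest (0.09 and 0.16). They were left out of the endothelial and mural classes. Per kilobase of exon, Cspg5 had the highest mean level of the 36 (1156 normalized counts), followed by Vtn (1021), Itm2a (956), Slc2a1 (769) and Cldn5 (758). The lowest were Cnn1 (6.86) and Emcn (28.5), with exon lengths taken over all annotated transcripts of a gene.

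Without WT replicate 1 the 95% CI was narrower for 32 of the 36 genes and wider for 4 (Egfl7, Higd1b, Cnn1 and Cspg5). With all libraries, differences above 2-fold either way were outside the 95% CI for 13 of 36 genes, and without that library for 33. In the latter fit differences above 1.5-fold were outside it for 21 genes, of which 12 were endothelial. Log2 fold changes without WT replicate 1 ran from -0.50 (Anpep) to 0.49 (Cnn1), and 17 of the 22 endothelial genes were below 0.

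Other genes of the vessel wall shared the pattern to different degrees. Of 28 further endothelial markers 25 were higher in hDISC1AA/+ with all libraries (median log2 fold change 0.29) and 7 without WT replicate 1 (-0.10), and WT replicate 1 was lowest in 24. Cd34, a sialomucin of endothelium, had the smallest p of these, with 1779.8, 2283 and 2283 in WT and 2768, 2316, 2638 and 2572 in hDISC1AA/+. All 4 hDISC1AA/+ libraries were above all WT libraries, with a log2 fold change of 0.29 (limma adjusted p = 0.974) and 0.17 without WT replicate 1. Cd34 was the 1 of the 28 markers in which the groups did not overlap, as in 5.04% of all genes. Basement membrane genes, among them the collagens and laminins between endothelium and pericytes, were higher in 11 of 12 (median 0.18) and in 1 of 12 without WT replicate 1 (-0.08). Of 25 further mural markers 19 were higher (0.22), and 14 without WT replicate 1 (0.04). Their smallest p-values were those of Cox4i2, a pericyte subunit of cytochrome oxidase (log2 fold change 0.65, and 0.45 without WT replicate 1), the myosin light chain gene Myl9 (0.57 and 0.25) and Pdlim3 (-0.69 and -0.29). No gene of these 3 lists passed the limma threshold.

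Signalling genes around the vessel had smaller medians than the further endothelial markers. Of 16 angiogenic ligand genes tested, which reach endothelium from neurons, glia and the vessel itself, 10 were higher with all libraries (median 0.03) and 5 without WT replicate 1 (-0.06), and WT replicate 1 was lowest in 5. Of 18 genes of the Wnt and norrin pathway that induces the barrier 13 were higher (0.19), and 5 without WT replicate 1 (-0.07). Its receptor complex genes Tspan12 (log2 fold change -0.45) and Fzd4 (-0.28) had opposite signs to Reck (0.46). Without WT replicate 1 the values for Tspan12, Fzd4 and Reck were -0.21, -0.26 and 0.02. That library was the highest for Tspan12 and the lowest for Reck. Of 16 Notch and TGF-beta pathway genes 12 were higher (0.13), and 6 without WT replicate 1 (-0.02). Dll4, the Notch ligand of arterial and sprouting endothelium, had 18.0, 74.2 and 101 in WT and 87.8, 75.8, 121 and 122 in hDISC1AA/+ (log2 fold change 0.94, and 0.20 without WT replicate 1). Arterial markers were higher in 9 of 13 in both fits (medians 0.37 and 0.05). Cytl1, a secreted protein gene of that list, had log2 fold changes of 1.16 and 0.63. It was near the floor of measurement, with 3.85, 9.82 and 18.5 in WT and 23.3, 27.0, 19.5 and 17.5 in hDISC1AA/+. That list also holds Clu and Stmn2, which glia and neurons express. Venous markers were higher in 7 of 10 with all libraries and in 3 without WT replicate 1 (0.12 and -0.10). In none of these lists did a gene pass.

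**Figure D5:**
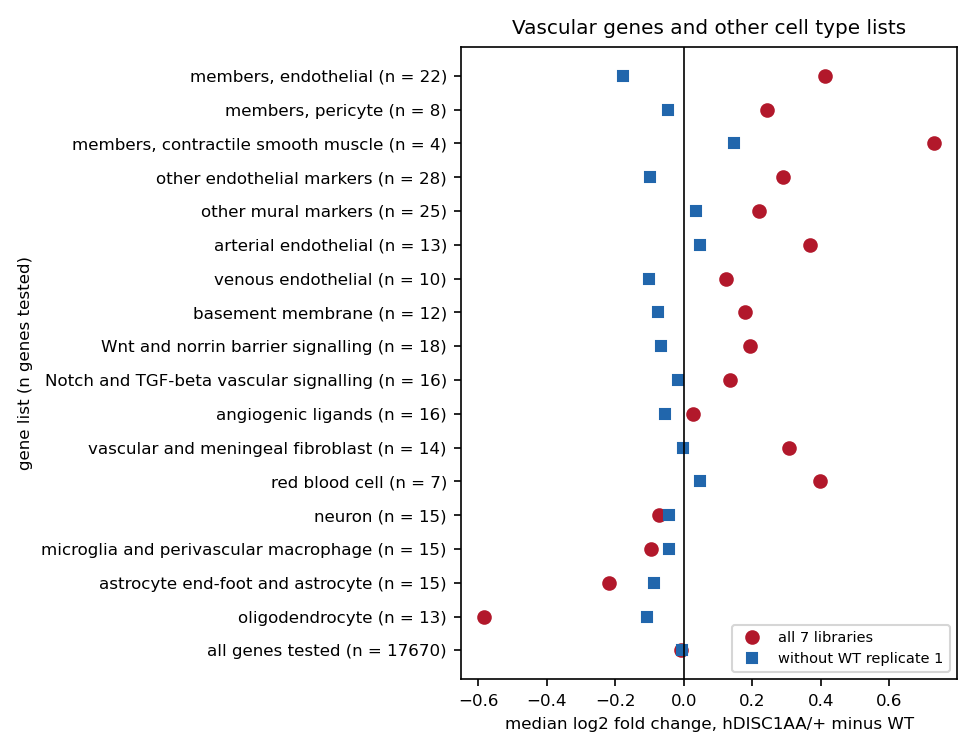
Points give the median log2 fold change of hDISC1AA/+ minus WT over the genes of each list, for all 7 libraries (red circles) and without WT replicate 1 (blue squares). The vascular lists lie right of 0 with all libraries, the oligodendrocyte list lies left at -0.58, and without WT replicate 1 most lists lie near all genes tested.

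Levels of other cell types were set beside the vascular classes on the same scale of mean log2 level. The 13 oligodendrocyte genes had 1.11 in WT replicate 1 and between -0.31 and 0.05 elsewhere, and the 15 astrocyte genes at 0.41 and -0.23 to 0.11. The 15 neuron genes lay at 0.10 and -0.07 to 0.06. Fibroblast genes of vessels and meninges lay at -0.69 and -0.18 to 0.52. The 7 red blood cell genes lay at -0.98, -0.94 and 1.22 in WT and at 1.23, 0.23, -1.25 and 0.48 in hDISC1AA/+. They were low in WT replicate 1 and high in WT replicate 3, as the vessel genes were, and lowest in hDISC1AA/+ replicate 3, where the vessel genes were high. Of the 15 astrocyte genes, end-foot genes among them, 1 was higher in hDISC1AA/+ with all libraries (median log2 fold change -0.22) and 5 without WT replicate 1 (-0.09), and none passed the limma threshold. At an unadjusted limma p under 0.05 there were 2 of the 15, Slc1a2 and Dtna, against 2.44% of all genes. Their log2 fold changes were -0.36 and -0.23, and -0.22 and -0.17 without WT replicate 1. In 1 of the 15, Dtna, the groups did not overlap, as in 5.04% of all genes.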

How the data were processed

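The authors deposited 1 table of gene values. The submitters' processing notes name DESeq2 1.26.0, HTSeq 0.6.1, HISAT2 2.1.0, Trimmomatic 0.39 and mm10, with no role or order; strand setting and handling of multi-mapping reads were not given in the sources used here. Deposited values are a signal proportional to reads: in each column 100% of the values above 0 were whole multiples of 1 step (tolerance 0.01 reads), so they were treated as reads over a constant of the library (a normalized count), and whole reads were recovered. Every pair of libraries differed by more than sampling noise (chi-square over its degrees of freedom 11.5 to 177). That ratio was 86.8 to 177 for the pairs with hDISC1AA/+ replicate 1. It was 67.9 to 94.8 for the other pairs with WT replicate 1, and 11.5 to 21.1 for the pairs of the remaining libraries. Values of 3 rows without a gene identifier (0.012% to 0.0169% of a column) were left out. The members, lists and tests were chosen with earlier results of these data known.

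limma 3.58.1 (R 4.3.3; trend and robust variances) was fitted to log2(normalized count + 1) of the 17670 genes that reached 10 in 3 libraries or more. Tests were two-sided, p-values were adjusted by Benjamini and Hochberg's method over those genes, and the threshold was 0.05. This scale understates fold changes of low genes. edgeR 4.0.16 (quasi-likelihood test) and DESeq2 1.42.0, on recovered reads, were alternatives, as were a pseudocount of 5, no filter, TMM scaling, array weights and omitted libraries. Exact permutation tests used the 35 ways to divide 7 libraries into 3 and 4, with a smallest p of 0.0286. Lists were described by counts and medians. All members are named; values in every library are given for the member with the highest mean and the one with the smallest p of each role, for Cldn5, Pecam1, Pdgfrb, Rgs5 and Acta2, and, chosen after values were seen, for Kdr, Egfl7, Higd1b, Anpep, Tagln and Cnn1. Of other lists up to 3 genes with the smallest p could be named. The fit was tested on simulated data in which genes were drawn independently, with no deviation shared by the genes of a library. That test does not bear on a library that stands apart, such as WT replicate 1.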

Additional observations from a re-analysis of the deposited data

Results flagged for a closer look

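Within the 4 hDISC1AA/+ libraries, a value was singled out where its gap to the next one, as a share of the range, passed Dixon's 95% critical value; chance marks about 1 in 20 groups. Among the 36 genes and their classes there were 2 such values. Higd1b had 49.8 normalized counts in the unnumbered library and 64.5, 65.0 and 64.8 in the other 3. The mean log2 level of the 12 mural genes was 0.37 in hDISC1AA/+ replicate 3 and 0.08 to 0.12 in the others. WT, with 3 libraries, was not examined this way.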

How the results depend on the processing

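The number of genes past the threshold was 0 in all 14 alternatives. The number of members higher in hDISC1AA/+ was 34 with all libraries, 13 to 34 with 1 library left out (lowest without WT replicate 1), 14 without WT replicate 1 and hDISC1AA/+ replicate 1, and 10 with array weights, which gave small weights to WT replicate 1 and hDISC1AA/+ replicate 1 and the largest to WT replicate 3, the highest library in 20 members. The median log2 fold change of the members was -0.14 to 0.73 with 1 library left out (highest without WT replicate 3), -0.10 without both libraries, -0.15 with array weights, 0.20 with edgeR and 0.19 with DESeq2. With each of those tools 29 of the 36 log2 fold changes were nearer to 0, with edgeR 0.22 for Flt1, 0.064 for Kdr and 0.076 for Sox18. Members at an unadjusted p under 0.05 numbered 0 to 9 with 1 library left out (9 without WT replicate 3, where 2.94% of all genes did so, and 3 without WT replicate 2, 5.01%), 2 without both libraries (3.32%), 2 with no filter (3.20%), 1 with array weights (10.3%) and 1 with DESeq2 (2.89%). Endothelial minus mural ran from -0.19 to 0.05 with 1 library left out and was -0.22 without both. Without WT replicate 1, 23 of the 36 log2 fold changes had another sign. Pseudocount, filter and TMM scaling turned no sign, and edgeR and DESeq2 turned that of Anpep (-0.083 and -0.089). With 1 library left out, the genes whose sign turned, and Cldn5, ran as follows: Cldn5 0.025 to 1.10, Ocln -0.18 to 0.55, Cdh5 -0.23 to 0.81, Esam -0.17 to 0.62, Flt1 -0.24 to 1.06, Kdr -0.42 to 0.83, Tek -0.24 to 0.83, Tie1 -0.16 to 1.04, Eng -0.14 to 0.77, Slco1a4 -0.36 to 0.78, Abcb1a -0.18 to 0.78, Sox17 -0.25 to 0.86, Sox18 -0.44 to 0.96, Erg -0.27 to 0.36, Egfl7 -0.076 to 0.15, Vwf -0.29 to 1.14, Ly6c1 -0.033 to 0.62, Itm2a -0.14 to 0.32, Pdgfrb -0.15 to 0.19, Rgs5 -0.042 to 0.48, Abcc9 -0.22 to 0.23, Anpep -0.50 to 0.29, Notch3 -0.051 to 0.52, Myh11 -0.011 to 1.48, Cldn10 -0.48 to 0.057 and Cspg5 -0.019 to 0.16. With array weights the turned values were Cldn5 -0.10, Ocln -0.14, Cdh5 -0.32, Esam -0.19, Flt1 -0.20, Kdr -0.32, Tek -0.23, Tie1 -0.29, Eng -0.24, Slc2a1 -0.0076, Slco1a4 -0.29, Abcb1a -0.17, Sox17 -0.27, Sox18 -0.59, Erg -0.31, Egfl7 -0.074, Vwf -0.47, Itm2a -0.13, Pdgfrb -0.30, Rgs5 -0.020, Abcc9 -0.17, Anpep -0.54, Notch3 -0.19 and Myh11 -0.10. Without WT replicate 1 and hDISC1AA/+ replicate 1 they were Cldn5 -0.0071, Ocln -0.14, Cdh5 -0.31, Esam -0.23, Flt1 -0.20, Kdr -0.44, Tek -0.20, Tie1 -0.21, Eng -0.25, Slco1a4 -0.23, Abcb1a -0.16, Sox17 -0.29, Sox18 -0.59, Erg -0.23, Vwf -0.38, Ly6c1 -0.028, Itm2a -0.045, Pdgfrb -0.24, Abcc9 -0.17, Anpep -0.64, Notch3 -0.062 and Cldn10 0.11. The cause was not tested. No paired analysis was possible because replicate numbers were assigned in accession order within each group, so that equal numbers pair no libraries. Cnn1, with 9 reads in its lowest library, is limited by depth.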

Other observations

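In 3 further lists no gene passed the limma threshold: those of microglia and macrophages, of oligodendrocyte precursors and of the choroid plexus. Of 15 genes of microglia and perivascular macrophages, the immune cells of the brain and of the vessel wall, 5 were higher in hDISC1AA/+ with all libraries (median log2 fold change -0.10) and 6 without WT replicate 1 (-0.04). Cx3cr1, the fractalkine receptor of microglia, had 2379.8, 1557 and 1499.5 normalized counts in WT and 1131, 1274, 1295 and 1851 in hDISC1AA/+. Of 9 genes of oligodendrocyte precursors tested, 1 was higher with all libraries (-0.16) and 4 without WT replicate 1 (-0.0074).

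The choroid plexus, which makes cerebrospinal fluid, is not part of the prefrontal cortex, and 6 of its 8 listed genes were tested. Ttr, its transthyretin gene, had 41.1, 15.3 and 14.2 normalized counts in WT and 758, 41.5, 15.2 and 22.6 in hDISC1AA/+, so that libraries of the same genotype differed widely. Klotho (Kl) had 68.0, 139.7 and 104 in WT and 154, 108, 161 and 169 in hDISC1AA/+.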
